A study of Caenorhabditis elegans with 4 samples.

Results

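The genes described here belong to the Notch pathway of the germline stem cell niche of Caenorhabditis elegans: the receptor genes glp-1 and lin-12, the ligand genes lag-2 and apx-1, the nuclear factor genes lag-1 and sel-8, and the target gene lst-1. They were chosen by name, and a gene counted as measured if a probe on the array carried its symbol and no other. Of the 7 genes, 6 had such a probe, 1 probe each, of 14943 named genes on the array. The ligand gene lag-2 had no probe under its symbol and was not analysed here. Therefore lag-2 has no value below, and apx-1 is the only one of these ligand genes that was measured.

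Each of 4 spotted arrays carried mRNA of glp-4 adults (preps 1 to 4) in channel 2 and a wild-type mixed reference RNA in channel 1. All worms of channel 2 are labelled as glp-4 worms. The sources used here give neither the allele nor the growth temperature, the adults' age or the makeup of the reference. At the restrictive temperature, temperature-sensitive glp-4 mutants are known to reach adulthood with very few germ cells, while the somatic gonad is present. The same reference was the only wild-type RNA, so its own spread is not part of any error below. No source says that the preps came from separate cultures, so the p-values cover the spread among 4 preps and that spread may be technical. The values are log2 ratios, and glp-4 adults over reference is their likely direction, from the wording of the array descriptions and the channel numbers. Since no dye is named, this direction is not settled, and all signs would be opposite if it ran the other way.

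In the germ line, the distal tip cell of the somatic gonad presents DSL ligands to the receptor GLP-1 on the germ cells next to it. Ligand binding leads to cleavage of the receptor by an ADAM protease and then by gamma-secretase, whose catalytic subunit is a presenilin. The freed intracellular domain enters the nucleus and forms a complex with the DNA-binding protein LAG-1 and the Mastermind-like co-activator SEL-8, which turns on lst-1 and sygl-1 and keeps the cells dividing as stem cells. LIN-12 is the paralogous receptor, known for cell fate choices in the somatic gonad and the vulva. The gene glp-1 is also maternal: its mRNA is loaded into oocytes and acts in the early embryo, where APX-1 is a ligand too. RNA of whole worms cannot tell apart fewer cells of a type and less RNA per cell.

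The arrays correlated with each other at Pearson's r of 0.727 to 0.796 across features, which are not independent replicates. Of 19966 features tested with limma, 37.9% passed an adjusted p of 0.05: in glp-4 adults 3400 were higher and 4175 lower. Without prep 4, 2082 were higher. Of 12 germ cell marker genes, all 12 were lower in glp-4 adults, with mean log2 ratios between -3.42 and -1.51 and a median of -2.18. Among all features, 20.9% were called lower, and the marker list was chosen with earlier results of these data known. The gene glp-4 shares its probe with agef-1, so its own level was not analysed here. Because the arrays came centred, a ratio is relative to the other transcripts of its array. Classes of mostly weakly expressed genes (pseudogenes, chemoreceptor and F-box genes) had a median log2 ratio of 0.31, which is the level that small positive ratios below should be set against.

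Of the 6 measured genes, 3 were lower in glp-4 adults, 0 were higher and 3 did not pass the test. Among all features, 20.9% were called lower and 37.9% were called either way. The germline receptor gene glp-1, the germline target gene lst-1 and the ligand gene apx-1 were lower. The values of the somatic receptor gene lin-12, of lag-1 and of sel-8 did not pass. The same 3 genes, glp-1, lst-1 and apx-1, were below 0 on all 4 arrays, as were 28.9% of the features measured on all arrays, and 0 of the 6 were above 0 on all arrays, as were 26.7% of those features.

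**Figure D1:**
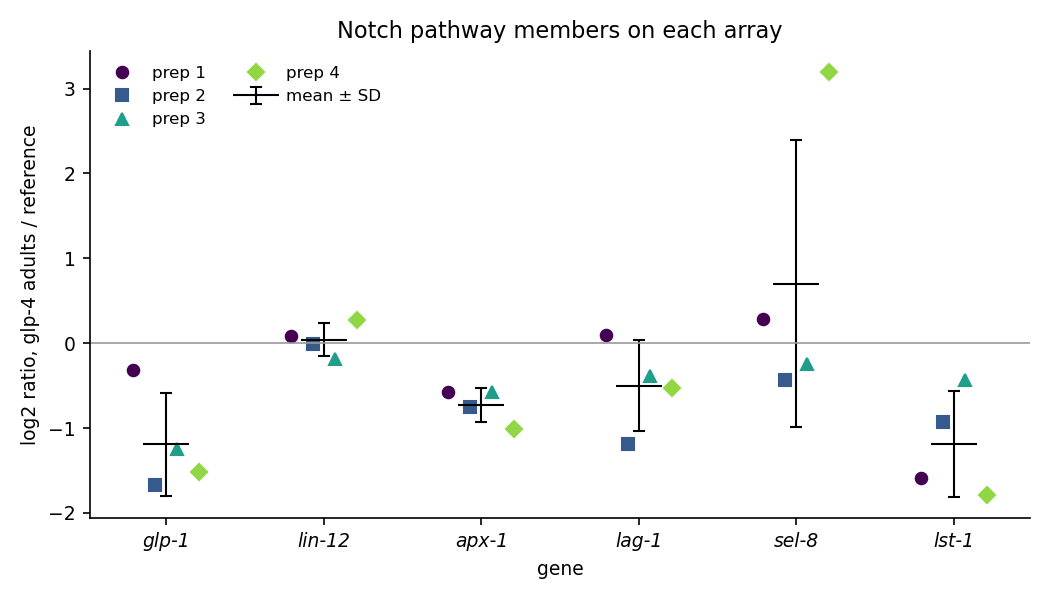
Log2 ratio of glp-4 adults over reference for the 6 measured genes (vertical axis), with 1 symbol per prep and the mean ± SD over 4 preps in black. The genes glp-1, apx-1 and lst-1 lie below 0 on every array, lin-12 lies around 0, and sel-8 has a value of 3.20 on prep 4 with its other values near 0.

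The receptors came out differently. The gene glp-1 (F02A9.6), the receptor gene of germ cells, had log2 ratios of -0.32, -1.68, -1.24 and -1.52 on preps 1 to 4. All arrays lay below 0, and prep 1 was the least low. The mean was -1.19 ± 0.61 (SD, n = 4 preps), 2.28-fold lower in glp-4 adults, with a 95% interval of -1.76 to -0.62 and an adjusted p of 0.00844 in limma. Of all tested features, 8.26% had a lower mean. On the 4 arrays glp-1 ranked at the 28.6, 7.48, 5.76 and 6.26 percentile of the tested features, so its place on prep 1 stood apart from the others.

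The gene lin-12 (R107.8), the receptor gene used in somatic cell fate choices, had 0.08, -0.01, -0.19 and 0.28 on preps 1 to 4. Its values straddled 0 within a narrow range. The mean was 0.04 ± 0.19, with an adjusted p of 0.850 in limma and a 95% interval of -0.32 to 0.40, and 52.3% of the features had a lower mean. Without prep 4 the mean was -0.038. The paralogs were compared within arrays: glp-1 minus lin-12 was -0.40, -1.67, -1.05 and -1.80 on preps 1 to 4. The receptor of germ cells had the lower ratio on 4 of 4 arrays, by 1.23 ± 0.64 on the log2 scale. An exact two-sided sign permutation gave p = 0.125, the smallest that 4 arrays allow, and p = 0.25 after adjustment over the 4 comparisons between genes that could be made, so no comparison between genes can pass by this test.

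In the RefSeq table, glp-1 and lin-12 are close neighbours on chromosome III with 6 coding genes between them. Of these, 3 were tested. The lipid-binding protein gene far-2 had a mean log2 ratio of 1.83 ± 0.22 (adjusted p = 0.000300 in limma), far-1 had 0.39 ± 0.19 and the mitochondrial ribosomal protein gene mrpl-44 had -0.07 ± 0.09, the last 2 without a call. Of the 3 tested genes between the receptor genes, 0 were lower in glp-4 adults, beside 20.9% of all features called lower.

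The ligand gene apx-1 (K08D9.3) had log2 ratios of -0.58, -0.75, -0.58 and -1.01 on preps 1 to 4. The arrays lay close together and prep 4 was the lowest. The mean was -0.73 ± 0.20, 1.66-fold lower in glp-4 adults, with a 95% interval of -1.09 to -0.36 and an adjusted p of 0.00997 in limma. Its place among all features was less extreme than that of glp-1, as 16.8% of the features had a lower mean. The within-array difference glp-1 minus apx-1 was 0.26 on prep 1 and -0.93, -0.67 and -0.51 on preps 2 to 4. With a mean of -0.46 ± 0.51 it did not exceed the spread between preps (exact two-sided sign permutation p = 0.25, adjusted p = 0.333 over the 4 comparisons). The sign of this difference was not the same on all arrays.

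Of the 6 other tested genes of ligands with the DSL domain, 1 was higher, 0 were lower and 5 did not pass. Among all 19966 features, 3400 were called higher and 4175 lower. The higher gene was arg-1, with values of 0.54, 0.97, 0.31 and 0.31 and a mean of 0.54 ± 0.31, just past the threshold with an adjusted p of 0.0458 in limma. The genes dsl-1 (0.23), dsl-4 (0.40), dsl-2 (-0.38), dsl-5 (-0.44) and dsl-6 (-0.33) had means without a call, and dsl-3, dsl-7 and lag-2 were not analysed here. The small secreted or membrane proteins with a DOS motif act as co-ligands of Notch receptors. Of 5 such genes, osm-11 was higher, with 0.82, 0.78, 0.91 and 1.02 on preps 1 to 4 (mean 0.88 ± 0.11, adjusted p = 0.00342 in limma). The gene dos-2 was lower, with -0.63, -1.02, -0.46 and -0.79 (mean -0.73 ± 0.24, adjusted p = 0.0115 in limma). The values of osm-7 (-0.52), dos-1 (-0.24) and dos-3 (0.21) did not pass. Thus 2 of the 5 co-ligand genes were called, beside 37.9% of all features.

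Among the enzymes that cleave the receptor was the lowest core pathway gene. The 6 tested genes of receptor proteolysis had a median of -0.53, and 3 of them were lower, 0 were higher and 3 had no call, beside 20.9% of all features called lower. The gamma-secretase subunit gene pen-2 was not analysed here. The presenilin gene hop-1 had -1.21, -2.02, -2.18 and -1.77 on preps 1 to 4, a mean of -1.80 ± 0.42 and a 3.47-fold lower ratio (adjusted p = 0.000745 in limma). The other presenilin gene, sel-12, had 0.08, 0.54, 0.11 and 0.27, a mean of 0.25 ± 0.21 that did not pass. The ratio of hop-1 was the lower of the presenilins on 4 of 4 arrays, by 2.05 ± 0.54, a comparison chosen after its values were seen and not tested.

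Of the other gamma-secretase subunits, aph-1 was lower, with -1.28, -1.58, -0.92 and -0.69 (mean -1.12 ± 0.39, adjusted p = 0.00396 in limma), and the nicastrin gene aph-2 had a mean of -0.46 that did not pass (adjusted p = 0.0582). The ADAM protease genes also had unlike values. The ADAM10-type gene sup-17 was lower, with -0.41, -0.79, -0.47 and -0.76 (mean -0.61 ± 0.19, adjusted p = 0.0198 in limma), while adm-4, of the ADAM17 type, had a mean of 0.31 ± 0.25 without a call. As with the presenilins, the lower gene, sup-17, had the lower ratio on 4 of 4 arrays (by 0.92 ± 0.44), again described after the values were seen.

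Neither gene of the nuclear complex passed. The DNA-binding factor gene lag-1 (K08B4.1) had 0.10, -1.19, -0.38 and -0.52 on preps 1 to 4. Prep 1 was just above 0 and the other 3 were below. The mean was -0.50 ± 0.53, with a 95% interval of -1.02 to 0.03 and an adjusted p of 0.116 in limma. Without prep 2, the lowest array, the mean was -0.27.

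The co-activator gene sel-8 (C32A3.1) had 0.29, -0.43 and -0.24 on preps 1 to 3 and 3.20 on prep 4. The first 3 arrays lay around 0, while prep 4 placed the gene at the 99.2 percentile of all tested features. The mean of 0.70 ± 1.69 (adjusted p = 0.355 in limma) rested on prep 4: without it the mean was -0.13. The partner gene lag-1 had the lower ratio on 4 of 4 arrays, with lag-1 minus sel-8 at -0.19, -0.76, -0.14 and -3.72. The mean difference of -1.20 ± 1.70 was -0.36 without prep 4 (exact two-sided sign permutation p = 0.125 with all arrays, adjusted p = 0.25 over the 4 comparisons). The cause of the value of sel-8 on prep 4 was not tested.

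**Figure D2:**
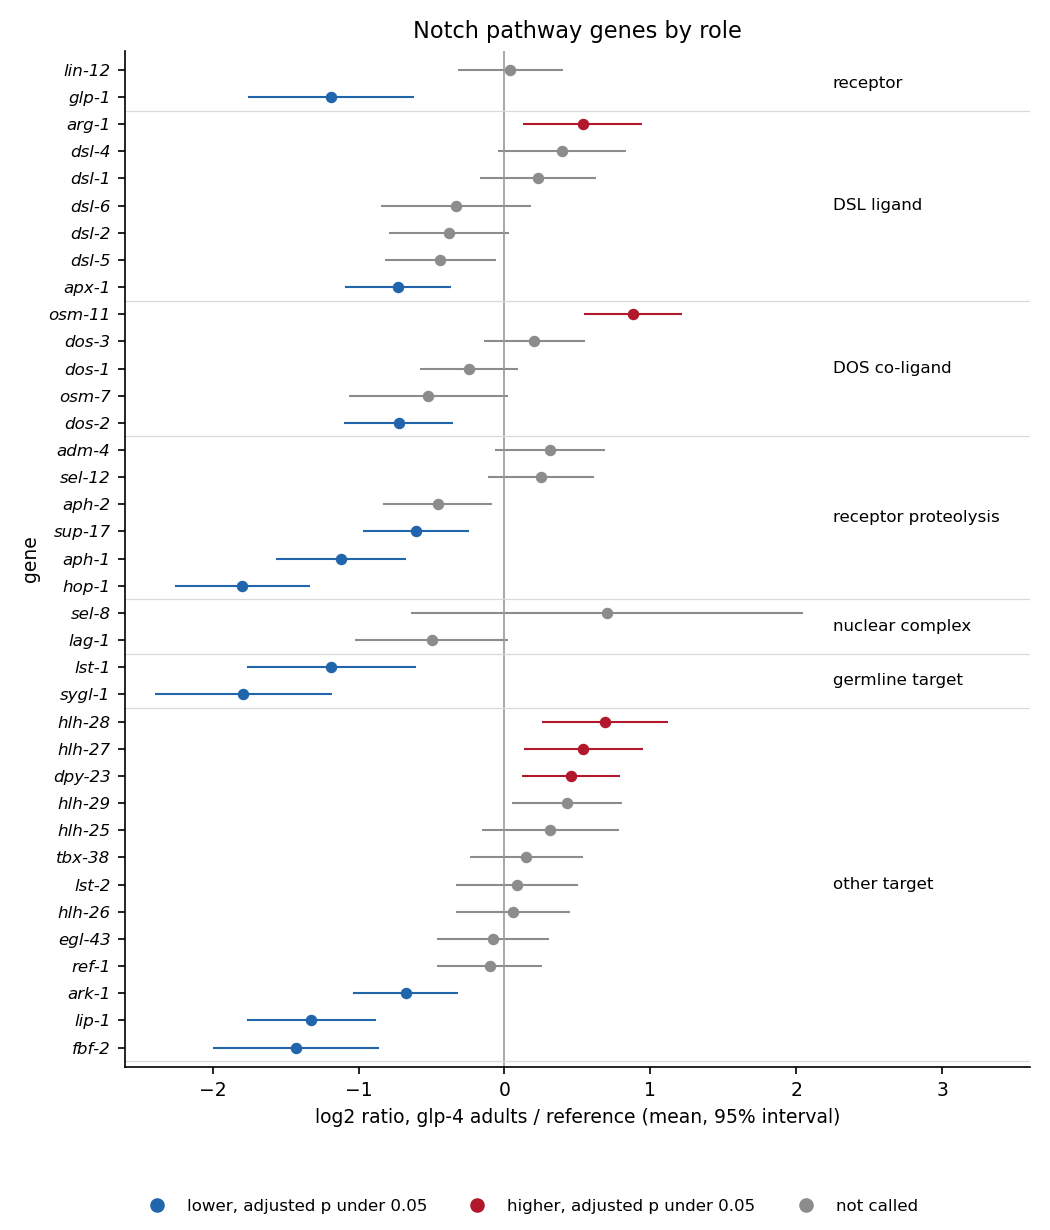
Mean log2 ratio of glp-4 adults over reference with its 95% interval from limma (horizontal axis) for 37 tested Notch pathway and target genes, grouped by role. Blue marks genes called lower, red marks genes called higher, and grey marks genes without a call. Every role except the nuclear complex holds a gene called lower.

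The target gene lst-1 (T22A3.3), which acts with the FBF proteins to keep germ cells in the stem cell state, had -1.59, -0.92, -0.44 and -1.79 on preps 1 to 4. Preps 1 and 4 were the lowest and prep 3 the nearest to 0. The mean was -1.19 ± 0.62, 2.27-fold lower in glp-4 adults, with a 95% interval of -1.77 to -0.60 and an adjusted p of 0.00922 in limma. Its mean was that of glp-1, with a difference lst-1 minus glp-1 of 0.0043 ± 0.98 (exact two-sided sign permutation p = 1, adjusted p = 1 over the 4 comparisons). The arrays behind these means differed: lst-1 minus glp-1 was -1.27 on prep 1 and -0.27 on prep 4, but 0.75 on prep 2 and 0.81 on prep 3.

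The second germline target, sygl-1, is redundant with lst-1 in holding the stem cell pool. It had -0.82, -2.31, -1.97 and -2.06 on preps 1 to 4, a mean of -1.79 ± 0.66 and a 3.46-fold lower ratio (adjusted p = 0.00211 in limma). Like glp-1, and unlike lst-1, it was least low on prep 1. Its difference from glp-1 was nearly constant: sygl-1 minus glp-1 was -0.50, -0.63, -0.72 and -0.55, a mean of -0.60 ± 0.10. The difference sygl-1 minus lst-1 had a mean of the same size and a wider spread, -0.60 ± 1.07. Both differences were picked after the values were seen and carry no test.

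**Figure D3:**
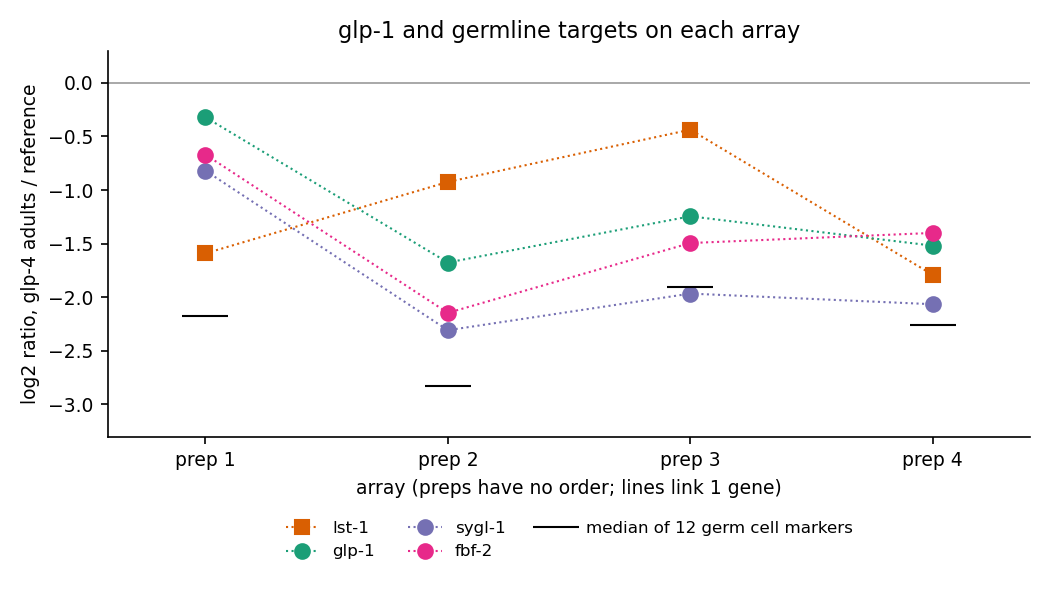
Log2 ratio of glp-4 adults over reference (vertical axis) on each of the 4 arrays for glp-1 and the target genes lst-1, sygl-1 and fbf-2, with the median of 12 germ cell markers as a black bar. The genes glp-1, sygl-1 and fbf-2 are least low on prep 1, where lst-1 is at -1.59 and the markers have a median of -2.18.

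Of 15 tested target genes, lst-1 and sygl-1 included, 5 were lower, 3 higher and 7 had no call. These 8 calls of 15 stand beside 37.9% of all features called and 20.9% called lower. The median of the targets was 0.058, beside 0.0034 over all features. The count of called targets was 5 without prep 1, 5 without prep 2 and 5 without prep 3. Besides lst-1 and sygl-1, the lower ones were fbf-2, lip-1 and ark-1. The gene fbf-2, of an RNA-binding FBF protein, had a mean of -1.43 ± 0.60 (adjusted p = 0.00401 in limma). The MAP kinase phosphatase gene lip-1 had -1.32 ± 0.39 (adjusted p = 0.00200 in limma) and the kinase gene ark-1 had -0.68 ± 0.19 (adjusted p = 0.0126 in limma). The fbf-1 and fbf-2 genes are near-identical, so the spot can report both. The highest target was hlh-28 of the REF-1 family (0.69 ± 0.11 on 3 arrays, adjusted p = 0.0261 in limma), a family whose members are near-identical in part and respond to Notch in embryos.

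Most tested genes of the germline network that sets mitosis against meiosis were lower. Of its 6 tested genes, with fbf-2 of the targets counted again, 5 were lower and 0 higher, beside 20.9% of all features called lower. The poly(A) polymerase gene gld-2 (-0.25) did not pass. The translational repressor gene gld-1 had a mean of -2.99 ± 0.63, rnp-8 of -2.45 ± 0.48 and gld-3 of -1.98 ± 1.00. All 6 tested genes of RNA-binding regulators of glp-1 mRNA or their relatives, gld-1 counted again, were lower, with a median of -3.61, led by pos-1 (-4.66 ± 0.28), puf-5 (-4.18 ± 0.31), spn-4 (-4.14 ± 0.47) and puf-6 (-3.07 ± 0.83). The mean of glp-1 itself, at -1.19, was less low than that of each of these 6 genes, a difference that was not tested.

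Other genes known to modify Notch signalling were mixed. Of 13 tested, 1 was higher, 5 were lower and 7 had no call, beside 37.9% of all features called and 20.9% called lower. The median of the modifiers was -0.21. The lowest were 3 of the 5 tested suppressors of presenilin mutants, known for roles in chromatin: spr-2 (-1.61 ± 0.35), the CoREST gene spr-1 (-1.30 ± 0.24) and spr-3 (-0.74 ± 0.30). Of the same group, spr-4 (-0.027) and spr-5 (-0.27) did not pass. The higher one was sel-2 (0.96 ± 0.43, adjusted p = 0.00864 in limma), a gene of membrane traffic. For the whole core pathway, 22 of 26 listed genes were tested, and 2 were higher, 6 lower and 14 without a call. That makes 8 of 22 called, beside 37.9% of all features. Without the genes chosen for this description, 6 of 17 core genes were called.

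Set beside marker genes, glp-1 and lst-1 had means closer to 0 than each of the 12 germ cell markers. The lowest markers were him-3 (-3.42 ± 0.52) and htp-1 (-3.07 ± 0.58), both of the meiotic chromosome axis, nos-2 of the Nanos family (-3.31 ± 0.37) and the P granule gene pgl-1 (-2.81 ± 0.29). By array, 12, 12, 11 and 10 of the 12 markers lay below glp-1 on preps 1 to 4, and 10, 12, 12 and 9 lay below lst-1. The markers' median by array was -2.18, -2.83, -1.90 and -2.26, so the value of glp-1 nearest to 0, on prep 1, had no counterpart in the markers' median. No difference between glp-1 and the markers was tested.

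Of 9 tested somatic gonad markers, 3 were higher, 2 lower and 4 had no call, beside 37.9% of all features called either way. Their median was 0.30, near the 0.31 of the classes of mostly weakly expressed genes, so it was not read as higher. The higher markers were the metalloprotease gene gon-1 (1.04 ± 0.78, adjusted p = 0.0286 in limma) and the innexin genes inx-9 (0.76 ± 0.30) and inx-8 (0.69 ± 0.35). The lower ones were hlh-2, a bHLH factor gene (-0.77 ± 0.17), and ceh-22 (-0.57 ± 0.16, adjusted p = 0.0226 in limma). The RNA is of whole worms, and the part of these genes' RNA that comes from the somatic gonad was not tested. The 5 calls were 2 without prep 3 and 1 without prep 4, and 3 with the arrays of one title date averaged. Of 4 tested vulva and anchor cell markers, 0 passed, with a median of -0.10, and without prep 4 the count was 1. Among these, lin-3 had -1.17, -1.05 and -0.41 on preps 1 to 3 and 1.82 on prep 4. Of 4 tested early embryo markers 0 passed, with a median of -0.12 (limma, with 9771 of all features at an unadjusted p under 0.05). Among all features, 37.9% were called either way. The part of germ cells, oocytes or embryos of the reference in the values of glp-1 and apx-1 was not tested.

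**Figure D4:**
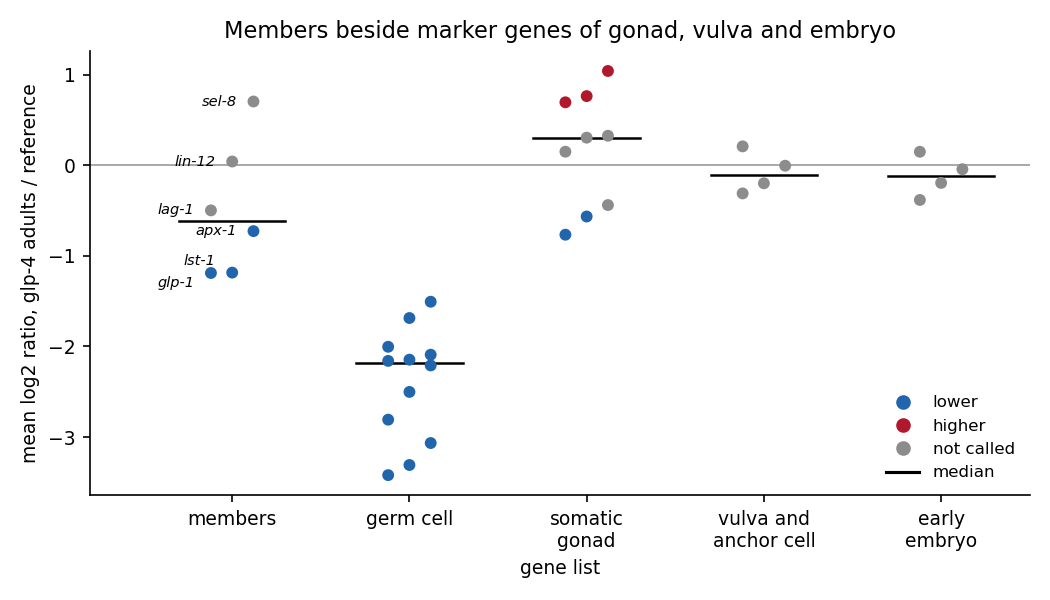
Mean log2 ratio of glp-4 adults over reference (vertical axis) for the 6 measured Notch pathway genes and for marker genes of germ cells, somatic gonad, vulva and anchor cell, and early embryo. Each point is a gene, blue if called lower, red if called higher and grey if not called, and black lines are medians. All 12 germ cell markers lie below glp-1 and lst-1.

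In the order of means, glp-1 (-1.19) was followed by lst-1 (-1.19), apx-1 (-0.73), lag-1 (-0.50), lin-12 (0.04) and sel-8 (0.70). No neighbours in this order differed by more than the SD of their within-array difference. The differences were -0.0043 ± 0.98 for glp-1 minus lst-1, -0.46 ± 0.53 for lst-1 minus apx-1, -0.23 ± 0.49 for apx-1 minus lag-1, -0.54 ± 0.55 for lag-1 minus lin-12 and -0.66 ± 1.53 for lin-12 minus sel-8.

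Among 14399 other named genes measured on all arrays, those with the smallest root mean square distance over the 4 arrays were taken as most alike. For glp-1 these were efl-1, an E2F family gene (0.113 on the log2 scale), rmd-4 (0.126) and dbd-12 (0.155). For lst-1 they were clec-180 (0.133), R07E3.6 (0.189) and bus-5 (0.251). The genes nearest to apx-1 were F47B3.4 (0.0416), pros-1 (0.0641) and the splicing factor gene rsp-8 (0.0707), and those nearest to lin-12 were fer-1 (0.0376), Y45F3A.1 (0.0452) and M151.2 (0.0487). The gene lag-1 lay nearest to ZK945.4 (0.0702), tyr-3 (0.0760) and fbxb-67 (0.0823). The profile of sel-8, high on prep 4, had Y32B12B.1 (0.182), F44E7.3 (0.255) and T14G12.6 (0.338) as its nearest genes, with values of 3.21, 2.90 and 2.56 on that array. The likeness of 4 values among this many genes is a description of these arrays.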

How the data were processed

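Gene expression was measured on 4 two-channel arrays of glp-4 adults against a wild-type mixed reference, with 21632 spots each. The deposited values are log2 ratios of both channels. The scale was read from the values: below -2, 100% of them were the log2 of a whole multiple of 0.001, within 1e-06. The sources used here do not name the scanner, background correction, normalization or dyes. Array medians lay between -0.07 and 0.08 and no centring was added. Signal over background is unknown. Precision is limited by having 4 arrays.

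Names came from the platform annotation, with 16450 probes of 1 gene, 247 of several and 4935 unnamed, and 16360 named probes matched the RefSeq table of WBcel235, used for names and neighbours only. Probes of a gene were averaged per array. The mean of each feature measured on 3 or more arrays was tested against 0 in limma 3.58.1 (R 4.3.3; intercept, eBayes, two-sided), with Benjamini-Hochberg adjustment over all 19966. The fit was tested on simulated data of 19086 features: 28.7% of 101 2-fold and 76.8% of 99 4-fold changes were recovered, with 1 false call. No other simulated feature was changed, while 37.9% of the real features were called. The adjustment was thus stricter in the simulation, and these rates do not give the power for the real data. Tables were joined in pandas 2.3.3 (Python 3.11.15), and matplotlib 3.10.9 drew the plots.

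The genes and lists were chosen with earlier results of these data known. Named are all members, all tested genes of the core roles and germline targets, the 4 called genes furthest from 0 of each other list, and the 3 genes most like each member. Other genes of these lists are named beside them in places. Alternatives were centring, scaling, features on all arrays, robust eBayes, single probes, averaging arrays of one title date, and leaving out each prep.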

Additional observations from a re-analysis of the deposited data

Results flagged for a closer look

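Of 68 results checked for an array far from the other 3, 5 were marked, and chance marks about 1 in 20 at the limit used, Dixon's 95% critical value of the gap over the range. The genes gon-1 and pgl-1 had their far value on prep 2: gon-1 had 2.20, with 0.53 to 0.74 on the other preps and a mean of 0.65 without it, and pgl-1 had -3.24, with -2.67 to -2.65 on the others. On prep 4, nos-2 had -3.86, with -3.18 to -3.05 on the others, and F44E7.3 had 2.90, with -0.10 to 0.12 on the others. That gene was picked for its likeness to sel-8, which is high on the same array, so the chance rate does not apply to it. On prep 3, puf-6 had -1.83, with -3.51 to -3.45 on the others. The value of sel-8 on prep 4, with a gap of 0.802 of its range, stayed under the limit.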

How the results depend on the processing

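Of 207 recomputed values of 21 results, 194 counted as the same. Ratios of genes had to keep their direction and their side of the threshold, and counts to stay within 1.5 times. Differences between genes had to keep their direction and move by less than their SD. By this rule lag-1 minus sel-8, with an SD of 1.70, counted as the same at -0.36 without prep 4. The calls of glp-1, lst-1 and apx-1 passed under all alternatives run, with adjusted p up to 0.0377, 0.0371 and 0.0488 in limma when a prep was left out. Each of these genes had 1 probe and a value on all 4 arrays. Single probes, features on all arrays and robust eBayes therefore could not change their means, and these settings are no test of them. The difference lst-1 minus glp-1 was -0.062 with arrays centred and scaled. With arrays of one title date averaged, an alternative chosen after seeing the data, 3 somatic gonad markers were called. Leaving out each prep in turn gave -0.038 to 0.12 for lin-12, -0.13 to 1.08 for sel-8 and -0.26 to 0.43 for lst-1 minus glp-1. It gave 5 to 6 called targets, 1 to 4 called somatic gonad markers, 0 to 1 called vulva and anchor cell markers, and 2082 to 2796 features higher, the fewest without prep 4. Fewer arrays lower the power, and other causes were not tested. The planned block by title date was not run, since limma estimated no correlation for 3 dates over 4 arrays. No paired analysis was possible because all arrays form 1 group.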
